A study of Mus musculus with 12 samples.

Results

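The potassium channel genes described here are all genes whose symbol starts with Kcn, the stem that mouse nomenclature gives to the subunits of potassium channels and to some of their regulators. The count tables held 99 such symbols, and 5 of them, which name antisense, opposite-strand or overlapping transcripts, were left out. The remaining 94 members were the same in the bulk table, which lists 45808 genes, and in the single-cell files, which list 31055. The study characterized the pancreatic polypeptide (Ppy)-expressing γ-cells of mouse islets by bulk and single-cell RNA-seq. For bulk RNA-seq, YFP+ cells were sorted from Ppy-rtTA;TetO-Cre;R26-YFP mice (γ-cells, n = 5 libraries) and from Sst-Cre;R26-YFP mice (δ-cells, n = 3 libraries). For single cells, the YFP+ and YFP- fractions of islets from Ppy-rtTA;TetO-Cre;R26-YFP mice were loaded separately in 2 experiments, which gave 4 libraries. All mice were 2 months old on a mixed background. Doxycycline (DOX) at 1 mg/ml in the drinking water labelled the cells that express Ppy. It was given 1 month before sampling and, per the study's methods, for 2 weeks. Whether Sst-Cre;R26-YFP mice also drank it is not given in the sources used here. The rtTA transgene sits in the Ppy locus and replaces 1 Ppy allele, so the γ-cells of both data sets carried a single working copy of Ppy. Labelling followed the Ppy promoter in one line and the Sst promoter in the other, whatever other hormone a cell made. γ-cell libraries were sequenced with paired-end reads and δ-cell libraries with single-end reads on another sequencer, so a difference between the cell types and a difference between the sequencing runs cannot be told apart in bulk.

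Potassium channels let potassium leave the cell and so hold or bring back a negative membrane potential, which in islet cells sets when voltage-gated calcium channels open and hormone granules are released. In the β-cell, the ATP-sensitive channel of Kcnj11 and Abcc8 closes when glucose is metabolised, and voltage-gated and calcium-activated potassium channels end the action potentials that follow. The family falls into voltage-gated pore subunits, the EAG, ERG and ELK channels, the KCNQ channels, inward rectifiers, tandem pore domain channels that carry background currents, calcium- or sodium-activated channels, and auxiliary subunits that set the gating or surface number of the pores.

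Bulk libraries held between 7641916 and 31784878 counts, the 3 δ-cell libraries being the shallowest. The hormones fitted the labels, with Ppy between 87365 and 116446 CPM (counts scaled to a common library size) in γ-cell libraries against 10889 to 16501 in δ-cell libraries, and Sst between 69804 and 101118 against 7119 to 11511. γ-cell libraries also carried 43968 to 83707 CPM of Gcg, against 1557 to 6696 in δ-cells, and 5225 to 15417 of Ins2, against 935 to 2297. The 16 acinar marker genes summed to 27572 to 116922 CPM in δ-cells and 2459 to 13910 in γ-cells. Single-cell classes were sums of UMIs in each experiment over cells that passed the threshold of a single hormone and lay in a cluster high in it. They were named Ppy+, Gcg+, Ins2+ and Sst+, with 3 bihormonal classes, which had no such cluster rule, beside them. The 2 sums of each single-hormone class held 345865 to 10343380 UMIs from 93 to 772 cells, and the Sst+ sums were the shallowest of these. Among the bihormonal classes, the Ppy+Ins2+ sums held 1019509 and 375752 UMIs from 84 and 39 cells. Of 1451 Ppy+ cells, 1437 came from YFP+ libraries, whereas all Gcg+ and Sst+ cells and all but 1 of the Ins2+ cells came from YFP- libraries, so that a comparison with Ppy+ cells is also one between sort fractions. Libraries shared 1 to 6 cell barcodes.

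In bulk, the 94 genes together took 1668 to 1845 CPM in γ-cells and 696 to 898 in δ-cells, after scaling by the trimmed mean of M-values (TMM), which is the scale of all bulk CPM below. Fewer cells of a type and less RNA per cell cannot be told apart in such libraries. The gap was smaller in the single-cell sums, on their own TMM scale, where the members took 561 and 600 CPM in Ppy+ cells and 502 and 518 in Sst+ cells. What set this difference in size was not tested. At an average of at least 5 counts per library, 68 of the 94 members could be tested, and 4 had no read in any of the 8 libraries. Calls required an adjusted p of 0.05 or less (edgeR, quasi-likelihood test) and a change of 1 or more on the log2 scale in either direction, with SE the standard error implied by the F statistic of that test. Of the 68, 38 were called (55.9%), 20 higher and 18 lower in γ-cells, while 35% of all 17926 tested genes were called, 20.7% higher and 14.2% lower. In 35 of these 38 the γ- and δ-cell libraries did not overlap, which was so for 54.2% of all tested genes. The median log2 fold change was 0.33 over the members and -0.06 over all tested genes.

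Fold changes of the 68 members followed the GC content of their transcripts with a Spearman correlation of 0.62, which was 0.25 over the 16899 tested genes with a transcript sequence. Members called higher in γ-cells had a median GC content of 56.8% and those called lower 45.8%. Its part in the calls was tested with a smooth GC trend taken out of each library, which left 32 calls, 16 in either direction, and whether GC content or cell type set the trend cannot be told apart.

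Per kilobase of exon, the highest members in γ-cells were Kcnk16 at 104 ± 8.39 RPKM (SD, n = 5), Kcnh6 at 82.4 ± 10.6, Kcnk3 at 51.9 ± 8.5, Kcnmb2 at 45.9 ± 4.23 and Kcnk1 at 39.7 ± 4.52. Kcnh2 followed at 35 ± 3.31 RPKM. In δ-cells the order began with Kcnmb2 at 45.1 ± 8.31 RPKM (SD, n = 3) and Kcnk1 at 39.9 ± 6.90, which overlapped, and went on with Kcnk16 at 22.8 ± 3.85, Kcna5 at 15.6 ± 5.16 and Kcnk3 at 14.6 ± 1.69. Kcnmb2, a β-subunit that inactivates the large-conductance calcium-activated channel, and Kcnk1, a weak background channel, thus had similar means per length in both cell types.

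**Figure D1:**
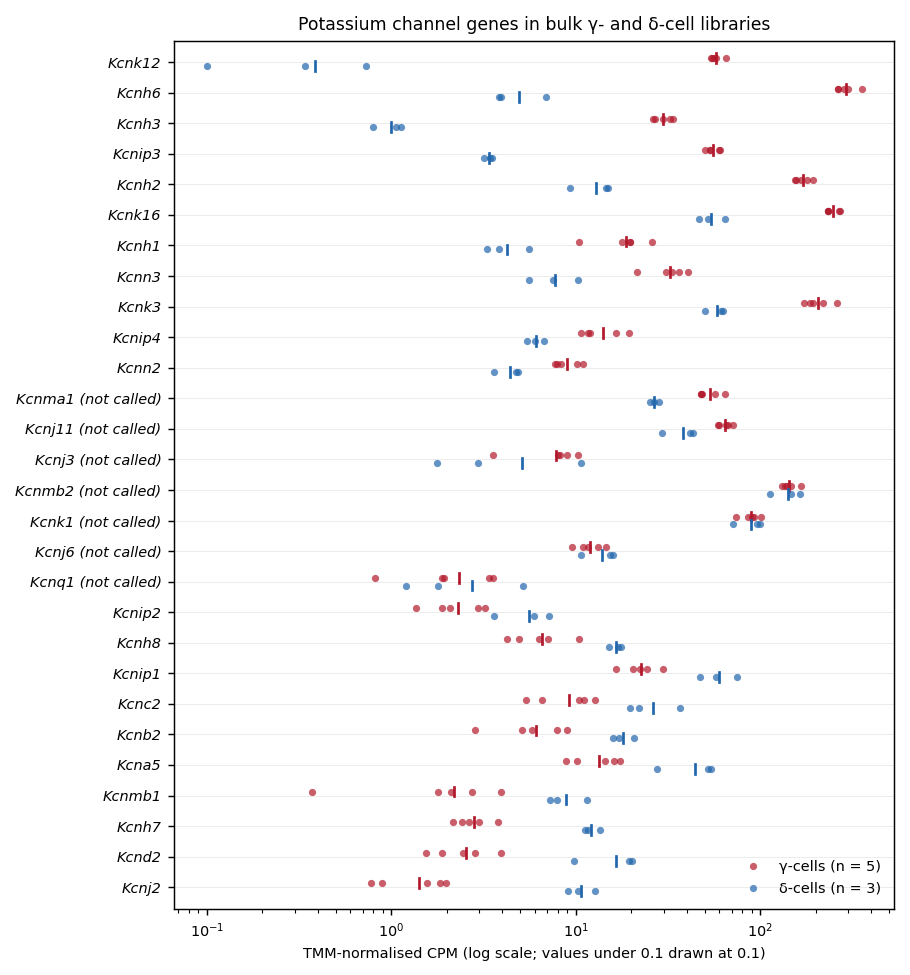
TMM-normalised CPM (log scale) of the named potassium channel genes in each γ-cell (red) and δ-cell (blue) library, with a tick at the mean, ordered by log2 fold change. Kcnk12, Kcnh6, Kcnh3 and Kcnip3 stand far apart between the groups at the top, Kcnmb2 and Kcnk1 overlap in the middle, and Kcnj2 and Kcnd2 are lowest in γ-cells at the bottom.

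The EAG, ERG and ELK channels, voltage-gated channels whose members shape repolarisation and excitability, held some of the largest differences. Of 7 tested genes, 4 were higher and 2 lower in γ-cells. Kcnh6, an ERG channel, stood at 263, 283, 354, 264 and 298 CPM in the γ-cell libraries and at 3.84, 3.91 and 6.92 in the δ-cell libraries (log2 fold change 5.89, SE 0.24, adjusted p = 3.51e-08). Kcnh2, its paralog and the best known ERG channel of the heart, measured 157, 193, 154, 167 and 179 CPM in γ-cells against 9.27, 14.5 and 14.9 in δ-cells (3.71, SE 0.18, adjusted p = 8.27e-08). Both genes were high in every γ-cell library and the groups lay more than 10 times apart. Kcnh3, an ELK channel, ranged from 26.3 to 33.5 CPM against 0.799 to 1.13 (4.90, SE 0.21), and Kcnh1, an EAG channel, from 10.4 to 26.0 against 3.28 to 5.59 (2.13, SE 0.32). The opposite was seen for Kcnh7, the remaining ERG gene, at 2.15 to 3.76 CPM in γ-cells and 11.2 to 13.6 in δ-cells (-2.12, SE 0.26), and for Kcnh8, an ELK gene, at 4.25 to 10.4 against 15.2 to 17.7 (-1.33, SE 0.28). With the GC trend removed, Kcnh6, Kcnh2, Kcnh3 and Kcnh1 differed by 5.25, 2.13, 3.36 and 1.99, and Kcnh7 and Kcnh8 by -1.7 and -1.26. So in bulk, the ERG genes Kcnh2 and Kcnh6 were higher, and Kcnh7 lower, in γ-cell than in δ-cell libraries. Between single Ppy+ and Sst+ cells, Kcnh6 was called higher, with 1 UMI in Sst+ cells. Kcnh6 passed the low-count filter described below through no class with Sst, so this difference is a description. The call was also lost when any sum of either class was left out. Kcnh2 (0.42, SE 0.33) and Kcnh7 (-0.6, SE 1.13) were not called between these classes.

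Of the tandem pore domain channels, 3 of 9 tested were higher and 2 lower. Kcnk16, which encodes the islet channel TALK-1, was the highest member per length in γ-cells, with 232, 272, 233, 234 and 266 CPM against 46.3, 51.9 and 64.2 in δ-cells (log2 fold change 2.19, SE 0.14, adjusted p = 4.5e-07). Kcnk3, the acid-sensitive channel TASK-1, measured 194, 218, 187, 173 and 259 CPM against 50.4, 60.9 and 62.9 (1.83, SE 0.16, adjusted p = 4.08e-06). With the GC trend removed its difference was 0.82 (SE 0.15), under the fold threshold, and Kcnk16 remained at 1.85. Kcnk12, a channel subunit known to be silent at the cell surface in many settings, stood at 54.6, 57.7, 53.7, 64.8 and 56.4 CPM in γ-cells and 0.339, 0.0799 and 0.733 in δ-cells (7.19, SE 0.34, adjusted p = 7.88e-08). With the GC trend removed, Kcnk12 differed by 3.71. Kcnk1 ranged from 73.6 to 101 CPM against 71.5 to 99.8 and did not pass (-0.01, SE 0.14).

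Kcnk16 lies next to Kcnk5, which encodes another pH-sensitive background channel, on chromosome 14, Kcnk16 at chr14:20261376-20269199 and Kcnk5 at chr14:20140057-20181809, both on the minus strand (GRCm38, GENCODE M21). Kcnk5 reached only 0 to 3.66 CPM in γ-cells and 2.48 to 11.5 in δ-cells and was not called (adjusted p = 0.214). The 250 bases before the RefSeq start of each gene are shown, 5′ to 3′ on the strand of the gene, since these neighbours differ in where they are read (GRCm38.p6). RefSeq and GENCODE starts differ, and the Kcnk5 window reaches into the GENCODE span given for that gene. The 2 windows lie at chr14:20269270-20269519 and chr14:20181783-20182032.
Kcnk16: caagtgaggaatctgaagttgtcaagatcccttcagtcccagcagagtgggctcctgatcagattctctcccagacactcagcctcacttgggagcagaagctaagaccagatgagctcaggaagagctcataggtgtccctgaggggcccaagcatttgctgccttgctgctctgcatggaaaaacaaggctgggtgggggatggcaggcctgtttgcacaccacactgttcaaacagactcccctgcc
Kcnk5: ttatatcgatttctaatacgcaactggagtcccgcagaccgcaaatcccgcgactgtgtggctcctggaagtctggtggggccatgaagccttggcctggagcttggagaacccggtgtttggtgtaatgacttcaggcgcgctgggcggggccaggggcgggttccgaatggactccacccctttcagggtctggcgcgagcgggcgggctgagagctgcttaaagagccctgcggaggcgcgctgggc
The window of Kcnk16 held 54.8% G or C and 0 CpG dinucleotides, and that of Kcnk5 62.8% and 19 CpG, beside medians of 52.4% and 6 over 32851 promoter windows of this length. Neither window held a match to the 5 short motifs searched for on both strands, which were GTTGCC for RFX factors, TGCTGA for MAF, TAATTA for homeodomain factors, TGTTTAC for FOXA and GTTAAT for HNF1. Of the 94 members, 69 had a promoter in the table.

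The windows of Kcnh6 and Kcnip1 are given for a gene higher and a gene lower in γ-cells. They lie at chr11:106007898-106008147 on the plus strand and chr11:33993194-33993443 on the minus strand, the latter before the most distal of 3 starts listed for Kcnip1. Capitals mark TGCTGA or its reverse complement, the core of the MAF element, the only motif of the 5 found in them. The GENCODE start of Kcnh6 is at 106008124, so the end of its window, with the second match, lies inside that gene span.
Kcnh6: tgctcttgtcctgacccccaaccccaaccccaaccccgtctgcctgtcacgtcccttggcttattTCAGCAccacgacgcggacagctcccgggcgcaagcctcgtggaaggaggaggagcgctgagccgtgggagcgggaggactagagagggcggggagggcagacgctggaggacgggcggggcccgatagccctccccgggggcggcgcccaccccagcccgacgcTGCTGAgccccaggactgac
Kcnip1: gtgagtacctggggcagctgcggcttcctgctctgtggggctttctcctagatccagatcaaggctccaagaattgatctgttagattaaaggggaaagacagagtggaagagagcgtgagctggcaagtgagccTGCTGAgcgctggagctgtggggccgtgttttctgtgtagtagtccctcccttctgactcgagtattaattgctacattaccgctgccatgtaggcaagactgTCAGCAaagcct
Both windows held 2 such matches. TGCTGA was present in 16.1% of all windows and in 13.8% of the 94 windows of members, and a match is a run of letters, not a measured site.

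Voltage-gated pore subunits moved in both directions, with 5 of 14 tested higher and 6 lower in γ-cells. Kcnb2, a delayed rectifier subunit, was at 8.93, 7.86, 5.12, 5.8 and 2.83 CPM in γ-cells and 17.1, 20.7 and 16.0 in δ-cells (log2 fold change -1.54, SE 0.32, adjusted p = 0.00231). The groups did not overlap. Kcnd2, an A-type channel that opens below threshold, measured 1.54 to 3.91 CPM against 9.72 to 20.2 (-2.70, SE 0.36). Kcna5, a delayed rectifier of the Shaker family, measured 8.83 to 17.3 CPM against 27.5 to 53.7 (-1.74, SE 0.27), and Kcnc2, a fast channel of the Shaw family, 5.39 to 12.8 against 19.6 to 36.8 (-1.5, SE 0.31). Kcna1 was called lower on 1 library, since δ-cell library 1 held 14.8 CPM and the other two 0.719 and 0.0814, with at most 0.483 in γ-cells. None of the 3 tested silent subunits, which do not form channels alone, was called.

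Among calcium- or sodium-activated channels, 3 of 8 were higher and none was lower. Kcnn3, a small-conductance channel of the afterhyperpolarisation, stood at 40.6, 30.9, 36.2, 33.1 and 21.5 CPM in γ-cells and 5.54, 10.2 and 7.49 in δ-cells (log2 fold change 2.06, SE 0.26, adjusted p = 7.51e-05). Kcnn1 and Kcnn2, the other small-conductance genes, differed by 1.87 (SE 0.40) and 1.04 (SE 0.25), and the call of Kcnn2, close to the threshold, was lost without γ-cell library 1 (0.987), γ-cell library 2 (0.972) or δ-cell library 2 (0.917). Kcnma1, the pore of the large-conductance channel, was at 47.8 to 64.3 CPM against 25.2 to 28.2 and missed the fold threshold at 0.997 (SE 0.13, adjusted p = 0.000124). Of its β-subunits, Kcnmb2 ranged from 132 to 165 CPM against 113 to 164 (0.03, SE 0.13) and did not pass, while Kcnmb1 was lower at 0.373 to 3.92 against 7.24 to 11.5 (-2.0, SE 0.54).

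Inward rectifiers gave 2 higher and 2 lower genes of 10 tested. Kcnj2, a classical strong rectifier, was at 1.57, 1.83, 0.772, 1.98 and 0.894 CPM in γ-cells and 12.7, 9.03 and 10.3 in δ-cells (log2 fold change -2.90, SE 0.37, adjusted p = 8.82e-05). Kcnj11, the pore of the ATP-sensitive channel, was at 59.0 to 71.5 CPM against 29.2 to 43.0. These groups did not overlap either, with an adjusted p of 0.00103, but the difference of 0.76 (SE 0.14) was under the threshold. The G-protein-gated genes Kcnj3 and Kcnj6, which open with somatostatin and other Gi-coupled receptors, were not called, at 3.58 to 10.2 against 1.76 to 10.7 CPM and 9.56 to 14.5 against 10.6 to 16.0. Kcnj5, another subunit of such channels, had 8 reads, all in δ-cell libraries 2 and 3, and was not tested. Of the KCNQ genes, 4 were tested. Kcnq1, the channel of cardiac and epithelial currents, overlapped between groups, at 0.818 to 3.58 against 1.2 to 5.2 CPM. Kcnq1ot1, an antisense transcript, lies inside Kcnq1 (chr7:143106362-143427042, GRCm38), and as the strand setting of the counting is not given in the sources used here, reads of the pair cannot be told apart.

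Of the 13 tested auxiliary or regulatory genes, 2 were higher and 6 lower. The 4 KChIP genes, calcium-binding subunits of A-type channels, were called in both directions. Kcnip3, which also acts as a calcium-dependent transcriptional repressor, stood at 50.3, 53.2, 59.5, 53.6 and 60.4 CPM in γ-cells and 3.17, 3.52 and 3.42 in δ-cells (log2 fold change 4.03, SE 0.14, adjusted p = 2.29e-08), and Kcnip4 at 10.7 to 19.4 against 5.46 to 6.71 (1.21, SE 0.26). The call of Kcnip4 was lost with upper-quartile factors (0.91) and with a replicate block (0.92). Kcnip1 stood at 24.3, 29.8, 16.6, 20.4 and 22.4 CPM in γ-cells and 47.0, 57.4 and 74.8 in δ-cells (-1.40, SE 0.20, adjusted p = 0.000175). Kcnip2 was at 1.35 to 3.21 against 3.62 to 7.11 (-1.27, SE 0.39), and its call was lost without δ-cell library 2 (-1.05, adjusted p = 0.0981) or 3 (-1.23, adjusted p = 0.0584). δ-cell library 1 had the most Kcne3 (15.5 CPM against 3.76 and 2.93 in libraries 2 and 3) and Kcnk5 (11.5 against 2.48 and 2.93). Both genes were high in the acinar-like and endothelial-like cells of the single-cell data. Acinar markers summed to 116922, 101286 and 27572 CPM in δ-cell libraries 1, 2 and 3, and endothelial markers to 391, 82.9 and 85.6. Sums of ductal, stromal, immune and glial markers were also highest in δ-cell library 1 among the δ-cell libraries. Neither gene was called, and the part of RNA from other cell types in their levels was not tested.

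**Figure D2:**
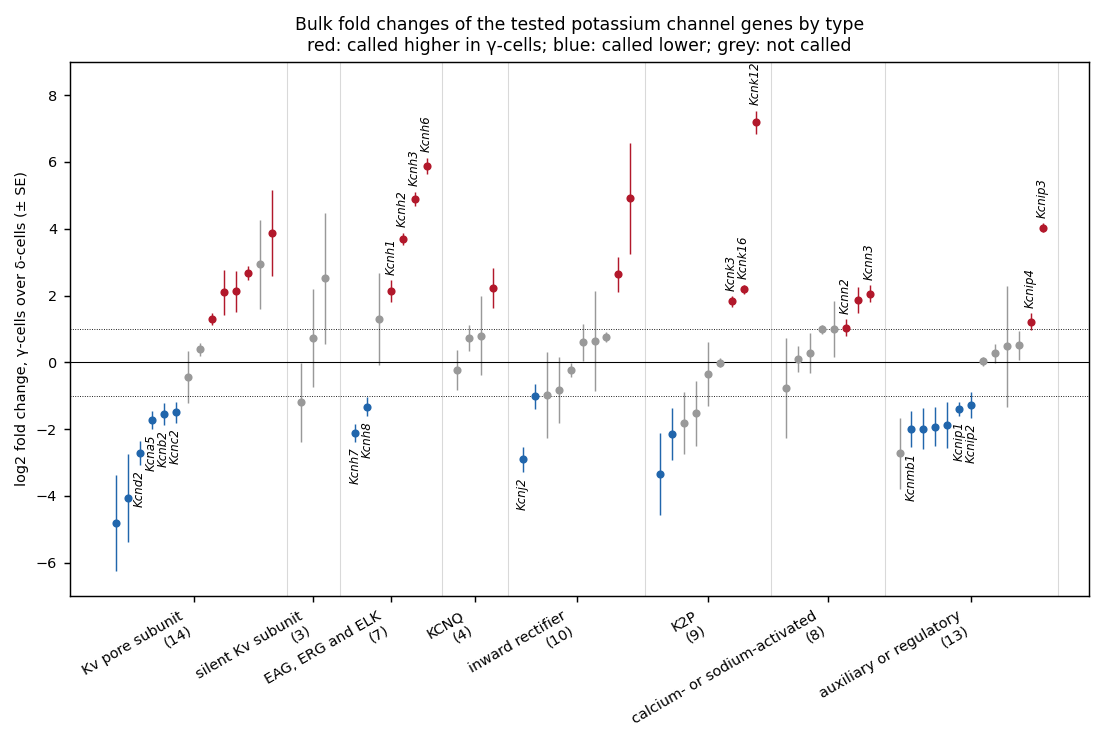
Log2 fold change (γ-cells over δ-cells) with its standard error for the 68 tested potassium channel genes, grouped by type, with the thresholds of 1 and -1 dotted. The 20 genes called higher are red and the 18 called lower blue, and each type but the silent subunits has calls.

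In single cells, 70 of the 94 members had a UMI in the 7 hormone classes and 23 passed the filter on low counts. These 23 held 95.2% of the members' 17370 UMIs, and Kcnk16 alone held 30.9%. Levels are CPM of the summed UMIs after TMM scaling, with the value of experiment 1 before that of experiment 2. Calls here required the same adjusted p from edgeR and a log2 difference over 0.721, which is 0.5 in natural logarithms. Of the 23, 5 (Kcna5, Kcnc2, Kcnd2, Kcnh7 and Kcnh8) passed the filter only through sums of classes with Sst, where they are high, and Kcnh6 and Kcnn3 reached its level of 5.4 CPM in 3 sums, none of a class with Sst. For these 7 genes a difference from Sst+ cells is in part built into the filter, so their values against Sst+ cells are a description. With 2 sums a class, the spread was pooled over all 14 sums.

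The number called was 8 of 23 between Ppy+ and Gcg+ cells, 4 in either direction, beside 12.7% of 10480 tested genes (5.94% higher and 6.73% lower in the former). Against Ins2+ cells 11 were called, 8 higher and 3 lower in Ppy+ cells, beside 26.4% (12.2 and 14.2%), and between Ppy+ and Sst+ cells 10, 5 in either direction, beside 11.8% (5.24 and 6.57%). Within the YFP- libraries, 10 were called between Gcg+ and Ins2+ cells (7 higher and 3 lower in Gcg+ cells, beside 22.4%, or 10.6 and 11.8%), 10 between Gcg+ and Sst+ cells (3 higher and 7 lower in Gcg+ cells, beside 11.8%, or 5.51 and 6.31%) and 8 between Ins2+ and Sst+ cells (1 higher and 7 lower in Ins2+ cells, beside 15.2%, or 7.95 and 7.28%). The last split was 2 and 6 when hormone genes were left out of the library sizes. The members' own shares ran from 34.8 to 47.8%. The counts against Sst+ cells include genes whose difference is in part built into the filter. These are Kcna5, Kcnc2 and Kcnd2 in each such pair, Kcnn3 against Ppy+ and Ins2+ cells, and Kcnh6 against Ppy+ cells. Counts and shares of these pairs are therefore a description.

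Kcnk3 was near absent from Ins2+ cells. It stood at 54.3 and 89.7 CPM in Ppy+ cells, 45.2 and 75.8 in Gcg+ cells, 18.0 and 34.3 in Sst+ cells and 1.72 and 4.90 in Ins2+ cells, the last from 9 and 4 UMIs. The difference was 4.73 (log2, SE 0.29, adjusted p = 5.92e-16) between Ppy+ and Ins2+ cells and 4.47 (SE 0.31, adjusted p = 1.99e-14) between Gcg+ and Ins2+ cells. Ppy+ and Gcg+ cells did not differ past the threshold (0.25, SE 0.15). Sst+ cells had levels between, with differences of 1.48 from Ppy+ cells, 1.22 from Gcg+ cells and 3.25 from Ins2+ cells. The call of Ppy+ against Sst+ cells was lost with the library as a block (0.70, adjusted p = 0.297) and without the experiment block (adjusted p = 0.101). That of Gcg+ against Sst+ cells was lost without the experiment block (adjusted p = 0.192). Within YFP+ libraries, with Ppy+Sst+ cells in place of Sst+ cells, Ppy+ cells were higher by 0.31 (adjusted p = 0.292). In all 4 classes the value of experiment 2 was the higher.

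Kcnip1 had the opposite distribution. Its level was 37.3 and 36.8 CPM in Ins2+ cells and 43.7 and 10.8 in Sst+ cells, against 1.82 and 1.76 in Ppy+ cells and 0 and 0.366 in Gcg+ cells, where a single UMI was counted. Ins2+ and Sst+ cells did not differ past the threshold (log2 0.27, SE 0.31). Ppy+ cells were lower than Ins2+ cells by 4.26 (SE 0.33, adjusted p = 2.74e-13) and than Sst+ cells by 3.99 (SE 0.46, adjusted p = 1.72e-08). On pooled UMIs, Ins2+ cells held 214 times the level of Gcg+ cells, with a 95% exact interval of 38.1 to 8498 that covers counting error only. In bulk, the gap between γ- and δ-cells was smaller, at -1.40, and what set this difference in size was not tested.

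Kcnk16 had the highest mean CPM of all members in Ppy+, Gcg+ and Ins2+ cells, and followed Kcnmb2 in Sst+ cells. It was higher in Ppy+ cells than in each of the others. It measured 205 and 210 CPM in Ppy+ cells, 117 and 127 in Gcg+ cells, 126 and 112 in Ins2+ cells and 97.7 and 119 in Sst+ cells. The 2 Ppy+ sums were above the other 6. Differences were 0.77 (log2, SE 0.12, adjusted p = 9.19e-06) from Gcg+, 0.75 (SE 0.13, adjusted p = 1.19e-05) from Ins2+ and 0.95 (SE 0.16, adjusted p = 1.84e-05) from Sst+ cells, and the last 3 classes did not differ past the threshold. As Ppy+ cells came from the YFP+ libraries, the bihormonal cells of these libraries were set in place of the other class. Within YFP+ libraries, Ppy+ cells differed from Ppy+Gcg+ cells by 0.33 (adjusted p = 0.00442) and from Ppy+Sst+ cells by 0.35 (adjusted p = 0.0257), both under the threshold, and from Ppy+Ins2+ cells by -0.02. With the library as a block, the 3 differences were 0.30, 0.29 and 0.47 and none was called. The Ppy+ against Gcg+ and Ins2+ calls were also lost without the Ppy+ sum of experiment 1 (0.70 and 0.69), and the latter without the Ins2+ sum of experiment 2 (0.63).

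**Figure D3:**
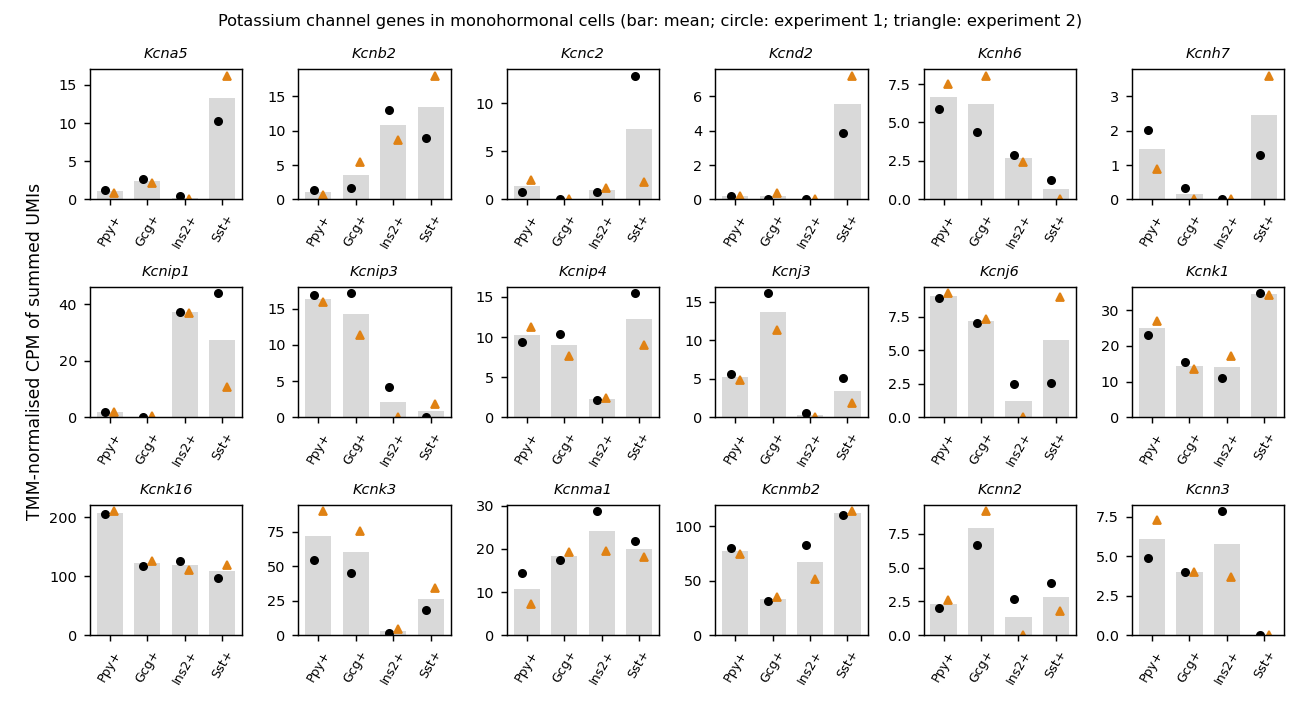
TMM-normalised CPM of summed UMIs in the 4 monohormonal classes for the potassium channel genes called in at least 1 pair (bar, mean; circle, experiment 1; triangle, experiment 2). Kcnk3, Kcnj3 and Kcnip3 are lowest or near lowest in Ins2+ cells, Kcnip1 is near 0 in Gcg+ cells, and Kcna5 and Kcnd2 stand highest in Sst+ cells.

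Of the voltage-gated pores, Kcna5, Kcnd2 and Kcnc2 had their highest mean level in Sst+ cells. Kcna5 was at 10.3 and 16.2 CPM in Sst+ cells, 2.68 and 2.20 in Gcg+ cells, 1.22 and 0.881 in Ppy+ cells and 0.382 and 0 in Ins2+ cells. Sst+ cells exceeded Ppy+ cells by 3.54 (log2, SE 0.64, adjusted p = 8.71e-05), Gcg+ cells by 2.37 and Ins2+ cells by 5.05. The call against Gcg+ cells was lost without the Gcg+ (-2.17, adjusted p = 0.0523) or the Sst+ sum (-2.03, adjusted p = 0.131) of experiment 2. Kcnd2 rested on 7 UMIs in Sst+ cells, 2 in Ppy+ cells, 1 in Gcg+ cells and none in Ins2+ cells, so that the level in Sst+ cells was 24.8 times that of Ppy+ cells (95% exact interval 4.72 to 245) and at least 10.5-fold that of Ins2+ cells, taking 3 UMIs over the class as the floor. Its call against Ppy+ cells was lost without either Ppy+ sum (adjusted p = 0.123 and 0.107). Kcnc2 had 10 of its 11 Sst+ UMIs in experiment 1, and without that sum none of its 3 calls held (adjusted p = 0.372 to 0.939). The call against Ppy+ cells was also lost without the Ppy+ sum of experiment 1 (adjusted p = 0.581), and that against Ins2+ cells without the Ins2+ sum of experiment 1 (adjusted p = 0.497).

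Kcnb2 was lowest in Ppy+ cells, at 1.42 and 0.661 CPM, with 1.67 and 5.49 in Gcg+ cells, 13.0 and 8.58 in Ins2+ cells and 9 and 18 in Sst+ cells. Ppy+ cells fell below Sst+ cells by 3.55 (log2, SE 0.65, adjusted p = 0.000103) and below Ins2+ cells by 3.58 (SE 0.46, adjusted p = 8.11e-08). Within YFP+ libraries, Ppy+ cells differed by -2.9 from Ppy+Sst+ cells (adjusted p = 0.00158) and by -2.18 from Ppy+Ins2+ cells (adjusted p = 0.166). The step from Ppy+ to Gcg+ cells was -1.67 (SE 0.60, adjusted p = 0.0453) and was lost without the Ppy+ (-0.99) or the Gcg+ sum (-0.71) of experiment 2.

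G-protein-gated inward rectifiers were low in Ins2+ cells. Kcnj3 was highest in Gcg+ cells, at 16.1 and 11.3 CPM, with 5.68 and 4.85 in Ppy+ cells, 5.14 and 1.80 in Sst+ cells and 0.573 and 0 in Ins2+ cells. Gcg+ cells exceeded Ins2+ cells by 4.84 (log2, SE 0.55, adjusted p = 4.29e-09) and Ppy+ cells by 1.37 (SE 0.30, adjusted p = 0.000742), the latter not called without the Ppy+ sum of experiment 1 (-1.11). Within YFP+ libraries, Kcnj3 differed by -0.188 between Ppy+ and Ppy+Gcg+ cells (adjusted p = 0.841). Kcnj6, its partner subunit, measured 8.92 and 9.25 CPM in Ppy+ cells, 7.03 and 7.32 in Gcg+ cells, 2.57 and 9.01 in Sst+ cells and 2.48 and 0 in Ins2+ cells. Ppy+ and Gcg+ cells were above Ins2+ cells by 2.12 (SE 0.43) and 1.78 (SE 0.48). Kcnj11 ranged from 22.1 CPM in an Ins2+ sum to 50.5 in a Sst+ sum and was called in no pair, with a difference of 0.66 (SE 0.17, adjusted p = 0.00239) between Ppy+ and Ins2+ cells under the threshold.

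KChIP genes separated the classes in other ways too. Kcnip3 stood at 16.8 and 15.9 CPM in Ppy+ cells and 17.1 and 11.3 in Gcg+ cells, against 4.21 and 0 in Ins2+ cells and 0 and 1.80 in Sst+ cells. With 1 UMI in Sst+ cells, the level of Ppy+ cells was 21.9 times higher (95% exact interval 3.87 to 870). The call was lost without the Sst+ sum of experiment 1 (3.03) and with the library as a block (3.05, adjusted p = 0.137). Within YFP+ libraries, Ppy+ cells exceeded Ppy+Sst+ cells by 0.46 (adjusted p = 0.477). Gcg+ cells were above Ins2+ cells by 2.06 (log2, SE 0.36). Kcnip4 was low only in Ins2+ cells among the 4 classes, at 2.10 and 2.45 CPM against 7.69 to 15.4 in the other 6 sums. Log2 differences were 2.29 from Ppy+, 2.11 from Gcg+ and -2.58 against Sst+ cells. These calls were lost without the Ins2+ sum of experiment 1 (1.95, 1.78 and -2.25), and the last also without the Sst+ sum of experiment 1 (-2.12). Within YFP+ libraries, Ppy+ cells exceeded Ppy+Ins2+ cells by 0.563 (adjusted p = 0.594).

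Genes of the large-conductance channel differed from each other. Kcnma1 was at 14.4 and 7.27 CPM in Ppy+ cells, 17.4 and 19.4 in Gcg+ cells, 28.7 and 19.6 in Ins2+ cells and 21.9 and 18.0 in Sst+ cells. Ppy+ cells were lower than Ins2+ cells by 1.24 (log2, SE 0.23, adjusted p = 5.22e-05) and than Gcg+ cells by 0.75 (SE 0.25, adjusted p = 0.0268). The former call was lost without the Ins2+ sum of experiment 1 (-0.90), the latter without the Ppy+ (-0.35) or the Gcg+ sum (-0.53) of experiment 2. The latter was also lost with the library as a block (-0.839, adjusted p = 0.264). Within YFP+ libraries, Kcnma1 differed by -0.33 between Ppy+ and Ppy+Gcg+ cells (adjusted p = 0.494). Kcnmb2 was lowest in Gcg+ cells, at 31.8 and 35.1 CPM, against 80.1 and 74.7 in Ppy+ cells, 82.6 and 51.5 in Ins2+ cells and 111 and 114 in Sst+ cells. All 6 sums of the other classes were above the 2 of Gcg+ cells. Gcg+ cells were lower by 1.21 (SE 0.15, adjusted p = 7.26e-08) than Ppy+ cells, by 1.12 (SE 0.16) than Ins2+ cells and by 1.73 (SE 0.19, adjusted p = 5.6e-09) than Sst+ cells. Within YFP+ libraries Ppy+ cells exceeded Ppy+Gcg+ cells by 0.31 (adjusted p = 0.0629), and the call against Ins2+ cells was lost without the Ins2+ sum of experiment 1 (-0.66, adjusted p = 0.0974).

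Small-conductance channels split between classes. Kcnn2 was highest in Gcg+ cells, at 6.70 and 9.15 CPM against 0 to 3.86 in the other 6 sums, and was called against Ppy+ (1.74, log2, SE 0.43) and Ins2+ cells (1.78, SE 0.50). Both calls were lost without the Gcg+ sum of experiment 2 (adjusted p = 0.159 and 0.0767) and the former also without the Ppy+ sum of experiment 1 (adjusted p = 0.0937). Kcnn3 had no UMI in the 244 Sst+ cells, whereas it had 57 in Ppy+ cells (4.87 and 7.27 CPM), 23 in Gcg+ cells (4.02 and 4.03) and 44 in Ins2+ cells (7.84 and 3.68). With the floor of 3 UMIs over the Sst+ class, Ppy+ cells held at least 2.68-fold higher and Ins2+ cells at least 3.25-fold higher levels. The calls were lost without either Sst+ sum (adjusted p = 0.0649 to 0.184), the former also without the Ppy+ sum of experiment 2 (0.0682) and the latter without the Ins2+ sum of experiment 1 (0.251).

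Kcnk1 was higher in Ppy+ and Sst+ cells, at 23.1 and 26.9 and at 34.7 and 34.3 CPM, than in Gcg+ cells (15.4 and 13.5) and Ins2+ cells (10.9 and 17.2). All 4 cross differences were called, at log2 0.78 and 1.02 for Ppy+ cells and at -1.25 and -1.5 for Gcg+ and Ins2+ cells against Sst+ cells, while Ppy+ and Sst+ cells did not differ past the threshold (-0.48, SE 0.25). Within YFP+ libraries, Ppy+ cells differed by 0.23 from Ppy+Gcg+ cells (adjusted p = 0.492) and by 0.54 from Ppy+Ins2+ cells (adjusted p = 0.37). The Ppy+ against Gcg+ call was lost without the Ppy+ or Gcg+ sum of experiment 2 (0.71 and 0.61). It was also lost with the library as a block (0.71, adjusted p = 0.28) and in DESeq2 (adjusted p = 0.0548). Also lost were the calls against Ins2+ cells without the Ins2+ sum of experiment 1 (0.59 and -1.06) and the Gcg+ against Sst+ call without the Sst+ sum of experiment 1 (-1.13). Kcnh6 was at 5.88 and 7.49 CPM in Ppy+ cells, 4.35 and 8.05 in Gcg+ cells, 2.87 and 2.45 in Ins2+ cells and 1.29 and 0 in Sst+ cells. Ppy+ cells exceeded Sst+ cells, which held 1 UMI, by 8.90 times (95% exact interval 1.54 to 357, adjusted p = 0.0445), a call lost without any 1 of the 4 sums (adjusted p = 0.0668 to 0.389). Kcnh2 was called in no pair, at 10.8 to 25.1 CPM.

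Over all named genes, 13 of the 57 single-cell calls stood in every alternative that gave a value. They were Kcnk3 in Ppy+ and in Gcg+ against Ins2+ cells, Kcnip1 in its 4 comparisons of Ppy+ or Gcg+ with Ins2+ or Sst+ cells, Kcnj3, Kcnj6 and Kcnip3 in Gcg+ against Ins2+ cells, Kcna5 in Sst+ against Ppy+ and Ins2+ cells, Kcnb2 in Ppy+ against Sst+ cells and Kcnmb2 in Gcg+ against Sst+ cells. Kcna5 passed the filter only through classes with Sst, so its calls against Sst+ cells remain a description.

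Bulk γ- against δ-cells and single Ppy+ against Sst+ cells were measured on separate libraries. All 23 members tested in single cells were also tested in bulk, where 17 of them were called. The 10 called in single cells were all called in bulk in the same direction, that is 58.8% of the bulk calls and 100% of the single-cell calls. Over all 10043 genes tested in both, 632 were called in both, which is 18% of the bulk and 53.7% of the single-cell calls, and 82.1% of them in the same direction. Kcnk16, Kcnk3, Kcnip3, Kcnh6 and Kcnn3 were higher, and Kcna5, Kcnb2, Kcnc2, Kcnd2 and Kcnip1 lower, in γ-cells and in Ppy+ cells. Of these 10, Kcna5, Kcnc2, Kcnd2, Kcnh6 and Kcnn3 are among the genes that passed the filter through one side only, so the shared direction is a description. With the library as a block, the Ppy+ against Sst+ calls of Kcnk16 (0.47, adjusted p = 0.18), Kcnk3 (0.70, adjusted p = 0.297), Kcnip3 (3.05, adjusted p = 0.137) and Kcnc2 (-2.09, adjusted p = 0.259) were lost. Those of Kcna5 (-2.88), Kcnb2 (-2.51) and Kcnip1 (-4.08) were kept, and Kcnh6, Kcnn3 and Kcnd2 gave no value in that fit.

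Sizes differed for some genes and signs for others, none of the latter called between single Ppy+ and Sst+ cells. Kcnip4 and Kcnn2, called higher in bulk γ-cells (1.21 and 1.04), were at -0.29 (SE 0.40) and -0.36 (SE 0.87) in single cells. Kcnma1, under the threshold in bulk at 0.997, was at -0.88 (SE 0.38). Kcnj6 (-0.22 in bulk, 0.79 in single cells) and Kcnmb2 (0.03 and -0.52) also had opposite signs. Kcnh2, at 3.71 in bulk, was at 0.42 (SE 0.33) in single cells. Kcnk12, at 53.7 to 64.8 CPM in bulk γ-cells, had 6 UMIs in the 7 hormone classes, and Kcnh3, at 26.3 to 33.5 CPM, had 51. With the GC trend removed, the bulk differences were 2.13 for Kcnh2, 3.36 for Kcnh3 and 3.71 for Kcnk12. Whether GC content or cell type set that trend cannot be told apart. The single-cell kit reads the 3′ end of a transcript, and whether that, the sequencing run or the cells set these gaps was not tested.

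**Figure D4:**
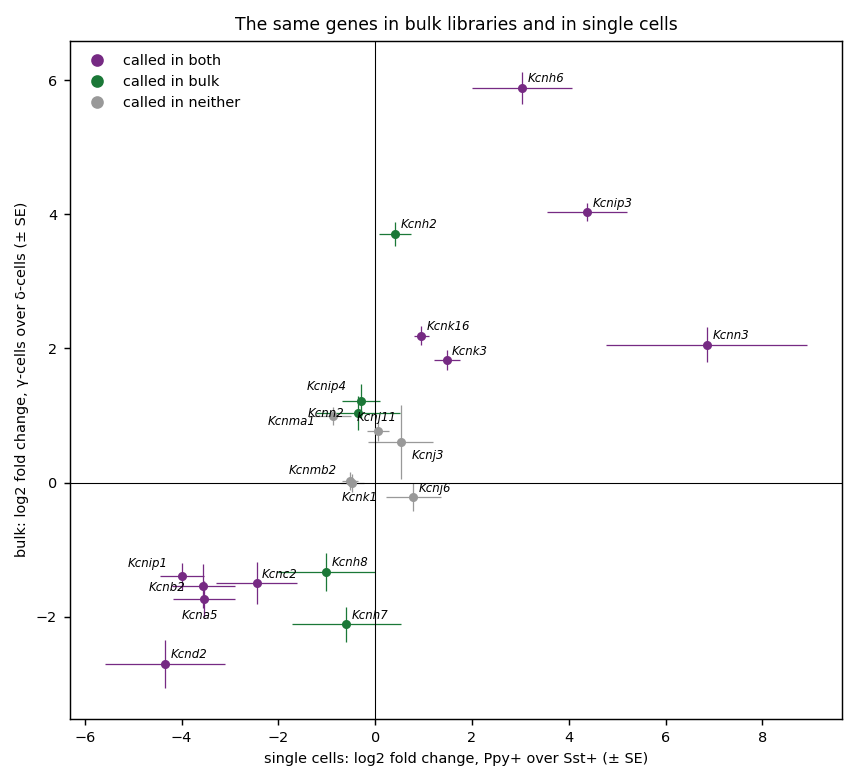
Log2 fold changes with standard errors of potassium channel genes tested in both data sets, Ppy+ over Sst+ cells on the x axis and γ- over δ-cells in bulk on the y axis. The 10 genes called in both (purple) lie in the quadrants of the same sign, while Kcnh2 lies high on the bulk axis and near 0 on the other.

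Bihormonal cells, which pass the thresholds of Ppy and a second hormone, are given here as levels. Hormone RNA of neighbouring cells can also place a cell there, a limit that holds for the tests within YFP+ libraries above as well. Kcnip1 stood at 23.3 and 22.3 CPM in Ppy+Sst+ cells and 30.1 and 16.9 in Ppy+Ins2+ cells, but at 1.03 and 1.97 in Ppy+Gcg+ cells. Kcnk3 ranged from 71.9 and 98.2 CPM in Ppy+Gcg+ cells to 21.4 and 70.2 in Ppy+Sst+ and 13.3 and 42.4 in Ppy+Ins2+ cells. Kcna5 was at 4.66 and 7.87 CPM in Ppy+Sst+ cells and had no UMI in Ppy+Ins2+ cells. Kcnb2 was at 6.52 and 13.8 in Ppy+Sst+ cells and 1.03 and 1.41 in Ppy+Gcg+ cells. Kcnk16 was at 148 and 174 CPM in Ppy+Gcg+, 129 and 165 in Ppy+Sst+ and 192 and 223 in Ppy+Ins2+ cells.

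Partners of the channels, 18 genes of accessory and related proteins, were measured beside them. In bulk 16 were tested, 6 were higher and 1 lower in γ-cells. Abcc8, the sulfonylurea receptor that encloses Kcnj11 and lies next to it on chromosome 7, was at 2216 to 2856 CPM in γ-cells and 1442 to 2457 in δ-cells and was not called (0.50, adjusted p = 0.0488). In single cells it stood between 109 and 202 CPM, with no call in any pair, the largest difference being -0.68 between Gcg+ and Sst+ cells. Hcn2, a pacemaker channel that opens on hyperpolarisation, was at 26.5 to 39.7 CPM in γ-cells and 0.16 to 0.489 in δ-cells (6.51), while its single-cell levels of 2.23 and 4.41 CPM in Ppy+ and 5.14 and 0 in Sst+ cells were too low to be tested.

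Dpp6 and Dpp10, which assemble with A-type channels and KChIP proteins, differed between classes. Dpp6 was at 112 and 115 CPM in Sst+ cells against 2.20 to 3.65 in the 6 sums of the other classes, with log2 differences of -5.23, -5.14 and -5.14 for Ppy+, Gcg+ and Ins2+ cells against it. Outside the classes with Sst, Dpp6 reached the filter level of 5.4 CPM only in the Ppy+Ins2+ sum of experiment 1, at 9.81 CPM without TMM scaling. Its passage thus rested on the classes where it is high, so its values against Sst+ cells are a description. Dpp6 was also lower in γ-cells in bulk, at 55.4 to 76.0 CPM against 183 to 345 (-1.95). Dpp10 was at 38.5 and 34.0 CPM in Gcg+ and 14.1 and 30.6 in Sst+ cells, against 0.406 and 1.98 in Ppy+ and 2.29 and 3.68 in Ins2+ cells, so that Ppy+ cells were lower than Gcg+ cells by 4.91 (adjusted p = 2.16e-14). Against Sst+ cells, the log2 difference of Ppy+ cells in Dpp10 was -4.13 (adjusted p = 2.46e-07). Bulk γ- and δ-cells, by contrast, did not differ past the threshold in Dpp10 (0.47, adjusted p = 0.141). Amigo2, a paralog of the accessory protein Amigo1, went in opposite directions, higher in γ-cells in bulk (68.0 to 120 CPM against 6.15 to 8.39, 3.53) and lower in Ppy+ than in Sst+ cells (7.30 and 8.81 against 15.4 and 30.6 CPM, -1.45, adjusted p = 0.00312).

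Non-endocrine clusters of the single-cell libraries, given in CPM without TMM scaling and named from their leading marker genes, held other members. The acinar-like cluster (Ctrb1, Try5) had Kcne3 at 169 and 152 CPM, Kcnn4 at 77.2 and 76.1, Kcnq1 at 45.3 and 42.5 and Kcnk5 at 17.3 and 35.8. Kcne3 is an accessory subunit that keeps Kcnq1 open in epithelia, and Kcnn4 is the intermediate-conductance calcium-activated channel of secretory and immune cells. In the 7 hormone classes the highest level of any sum was 0.417 CPM for Kcne3, 5.78 for Kcnn4, 2.52 for Kcnq1 and 0.833 for Kcnk5. Kcnk16 reached 14.7 and 56.0 CPM in the acinar-like cluster and 29.5 and 50.4 in the immune-like cluster of Lyz2, and Kcnk3, Kcnmb2 and Kcnj11 were also counted in these clusters, at mean levels of at most 14.7, 12.2 and 12.6 CPM.

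**Figure D5:**
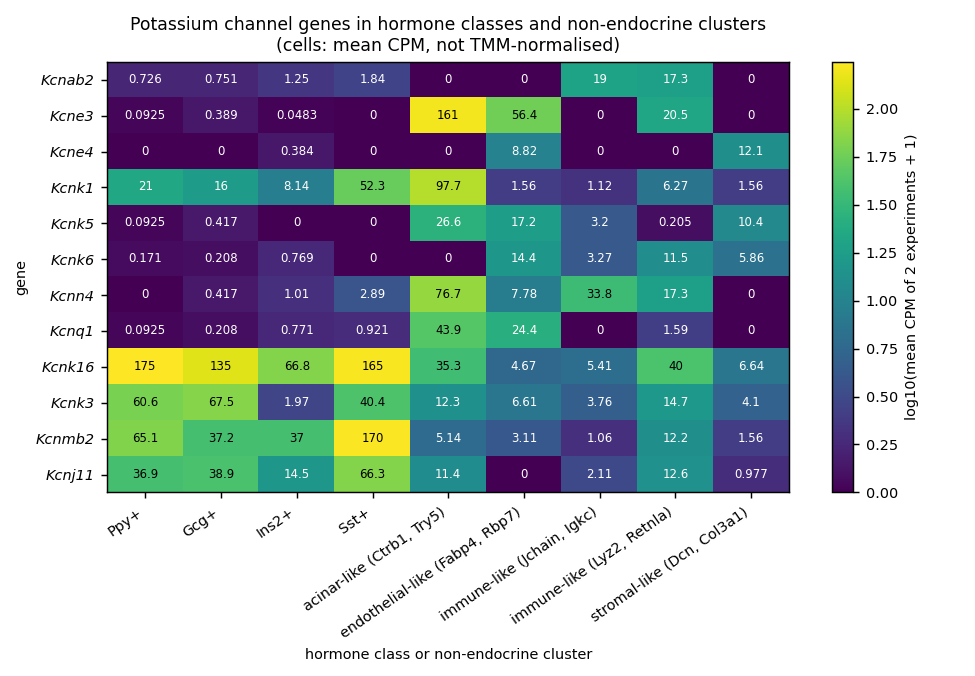
Mean CPM of the 2 experiments (no TMM scaling, colour on a log10 scale) of potassium channel genes in the monohormonal classes and non-endocrine clusters. Kcne3, Kcnn4, Kcnq1 and Kcnk5 are highest in the acinar-like cluster, and Kcnk16, Kcnk3, Kcnmb2 and Kcnj11 in hormone classes.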

How the data were processed

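YFP+ γ-cells (n = 5) and δ-cells (n = 3) were profiled in bulk and sorted islet cells by droplet single-cell RNA-seq (4 libraries). Per the labels and the study's methods, the authors aligned bulk reads with STAR 2.7.2b to GRCm38 and deposited raw counts per gene from HTSeq 0.9.1, while Cell Ranger gave the deposited single-cell UMI counts. The members and gene lists were chosen with earlier results of these data known. Another 6 bulk columns were not used here. Bulk counts (mean of at least 5 per library) were tested with edgeR 4.0.16 in R 4.3.3 by the quasi-likelihood test with TMM factors and Benjamini-Hochberg adjustment over all genes. Cells were clustered with Seurat 5.3.0, 5 non-endocrine clusters were set aside, and endocrine cells were classed by hormone thresholds. Single-hormone cells also had to lie in a cluster with a high mean of their hormone, a rule not put on bihormonal cells. As doublets, Scrublet called 8 cells and a nearest-neighbour score 120, and 126 cells in all were removed. UMIs were summed per class and experiment, and 10480 genes were tested with the experiment as a block, since each experiment supplied both sort fractions. Bulk replicate numbers did not pair the samples. The labels do not say that replicates came from separate animals, so p-values measure the spread between these samples, which may be technical. Named genes were a panel of 16 islet channels, per comparison up to 10 called members in each direction without overlap (at least 5 CPM in bulk, 10 in single cells), and members called in both data sets. Kcna1, Kcne3, Kcnk5 and Kcnn1 were named after their values were seen. RPKM used exonic lengths of GENCODE M21. Intervals and floors (3 UMIs) cover counting error only. Scripts were tested on simulated data. Alternatives included other scaling, filters, DESeq2 1.42.0, thinning and leaving out each sample. Results for some named members are not reported here.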

Additional observations from a re-analysis of the deposited data

Results flagged for a closer look

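Outside the endocrine comparisons, members reached mean levels (CPM of the 2 experiments, no TMM scaling) above the highest hormone-class sum. In the acinar-like cluster these were Kcne3 at 161, Kcnk1 at 97.7, Kcnn4 at 76.7, Kcnq1 at 43.9 and Kcnk5 at 26.6. The endothelial-like cluster held Kcne3 at 56.4, Kcnq1 at 24.4, Kcnk5 at 17.2 and Kcnk6 at 14.4. The immune-like cluster of Jchain held Kcnn4 at 33.8 and Kcnab2 at 19.0, and that of Lyz2 held both at 17.3. Kcne4 was at 12.1 in the stromal-like cluster. Endothelial Kcne3 rested mostly on experiment 2 (99.6 against 13.2 CPM).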

How the results depend on the processing

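Of 21 named bulk calls, 17 were kept in every alternative. With the GC trend removed, 32 members were called instead of 38. With a replicate block, bulk gave 28 calls, where same-numbered libraries deviated from their group means with correlations of -0.101, 0.064 and -0.274, so the numbers give no pairing. Leaving out 1 library gave 28 to 39 calls, the fewest without δ-cell library 2.

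In single cells, counts within YFP+ libraries are of another comparison, with the bihormonal cells of these libraries in place of the other class. The count for Ppy+ against Gcg+ (8 as reported) was 5 without the experiment block (no replicate block), 1 with library sums and a library block and 5 with hormone thresholds alone. It was 2 with cells thinned to 1000 UMIs, 4 in DESeq2 and 0 within YFP+ libraries (edgeR, with 3 of 17 at an unadjusted p under 0.05). Ppy+ against Ins2+ (11) gave 6 with the library block, 2 thinned and 6 within YFP+ libraries. Ppy+ against Sst+ (10) gave 5 without the block, 3 with the library block, 1 thinned and 3 within YFP+ libraries. Gcg+ against Ins2+ (10) gave 2 thinned, and Gcg+ against Sst+ (10) gave 6 without the block and 1 thinned. Ins2+ against Sst+ (8) gave 5 with the library block, 0 thinned (edgeR, with 2 at an unadjusted p under 0.05) and 4 with Gcg+, Ins2+ and Sst+ sums alone, an alternative chosen after seeing the data, as were the GC and YFP+ ones. Thinning left 6 members to test. Leaving out 1 sum gave 4 to 7, 6 to 13, 5 to 8, 6 to 11, 4 to 7 and 3 to 8 calls for these pairs in that order. Within YFP+ libraries, Ppy+ cells differed by -0.0198 from Ppy+Ins2+ cells in Kcnk16 (adjusted p = 0.952) and by 0.21 from Ppy+Gcg+ cells in Kcnb2 (adjusted p = 0.936). Both signs are opposite to those of Ppy+ against Ins2+ and Gcg+ cells. The Sst+ sums, with 542741 and 345865 UMIs, limit what could be seen of low members.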
